A study of Mus musculus with 27 samples.

Results

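Imprinted genes are transcribed mainly from one parental copy, and 35 of them in the mouse were followed here through embryoid body differentiation in wild-type cells and in a pair of lines lacking an RNA-binding STAR protein by their labels. The 35 genes came as a list of symbols and were found by gene identifier, through GENCODE release M21, among the 51826 identifiers of every count file, and all 35 were present. By what is known of mouse tissues, 22 are expressed from the paternal copy, 11 from the maternal copy, and 2, Gnas and Grb10, from either copy or both depending on the transcript and tissue. They lie in 16 imprinted clusters or single domains, 28 encode proteins and 7 are long noncoding RNAs. The counts are sums over both copies, so no value here says which parental copy was transcribed, and the parental copy named beside a gene is background.

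The samples were E14 mouse embryonic stem cells (wild type) and 2 knockout lines on the same E14 background, one with Quaking (gene Qk) knocked out, written QKI -/- in the protocol, and one with Sam68 (gene Khdrbs1) knocked out, written Sam68-/-. Each line was sequenced at day 0 as stem cells and at days 3 and 10 of embryoid bodies, which are floating aggregates of differentiating cells, with 3 biological replicates in each of the 9 groups. The labels name a single line for each knockout and no second clone, so clone and knockout cannot be told apart. The series asks what STAR proteins do in early mammalian development. In these bulk libraries fewer cells of a type and less RNA per cell cannot be told apart.

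In an imprinted cluster, DNA methylation set in the egg or the sperm marks an imprinting control region, and the zinc-finger protein ZFP57 with its cofactor TRIM28 holds the mark in place in the early embryo and in embryonic stem cells. In some clusters the mark blocks a long noncoding RNA that silences its neighbours on the same chromosome, as with Airn and Kcnq1ot1. At others, as between H19 and Igf2, it decides whether the insulator protein CTCF can bind. These are not the only ways in which such a mark acts. Many paternally expressed genes of this group promote the growth of the embryo and placenta, and many maternally expressed ones restrain it. Imprints are known to be unstable in cultured embryonic stem cells, in which clones of 1 line can differ.

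The total count of a library ran from 56461674 to 77257496. The targeted genes were not lost at the level of gene counts. Qk had 235 ± 4.22 CPM (the usual count scaled to library size, with TMM factors over all 27 libraries; mean ± SD, n = 3) in wild type at day 0 and 159 ± 9.35 CPM in the Quaking KO line, and was called lower there at each day. Khdrbs1 had 98.9 ± 1.5 CPM in wild type and 92.3 ± 4.49 CPM in the libraries labelled Sam68 KO at day 0, a difference that was not called. It was called lower there at day 3, with 97.2 ± 7.31 beside 159 ± 7.24 CPM (log2FC -0.7 ± 0.06, adjusted p = 1.15e-07), and at day 10 it was not called, with 99.7 ± 1.61 beside 115 ± 27.1 CPM (adjusted p = 0.132). Khdrbs1 was also called lower in the Quaking KO line at day 0, with 73.9 ± 4.08 CPM (adjusted p = 7.42e-08). The Sam68 KO libraries are therefore named by their label throughout. The Sam68-labelled libraries carry library numbers of their own in the labels, so an effect of that label and an effect of a library batch cannot be told apart. Summed markers of extraembryonic endoderm, all 9 of them detected in every group, were at 68.5 to 73.3 CPM in wild type, 43.3 to 47.2 CPM in the Quaking KO line and 341 to 350 CPM in the Sam68-labelled line at day 0. The 6 pluripotency markers, all detected in every group, summed to 2750 to 2930, 3290 to 3490 and 1930 to 1960 CPM in the same order. The part of such differences in cell makeup in the results below was not tested. Of the libraries, replicate 1 of wild type at day 10 stood apart from its group for several genes. Among them were Zdbf2, Kcnq1ot1, Malat1, Neat1, Tet1, Tet3 and Khdrbs1, the last at 146 CPM beside 98 and 100 CPM. Over all genes, the calls at day 10 in the Sam68-labelled line were 10377 with it and 11730 without it. In the Quaking KO line they were 2392 and 3139. Replicate 2 of the Quaking KO line at day 10 gave 5.1% of its counts to long noncoding RNAs.

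In wild-type stem cells most imprinted genes were already transcribed. At day 0, 9 of the 35 had a mean of at least 100 CPM and 6 were under 1 CPM, Rtl1, Asb4, Magel2, Airn, Plagl1 and Rasgrf1. Per kilobase of exon the highest levels at day 0 were those of Peg10 at 97 CPM per kilobase, Grb10 at 62.3 and Cdkn1c at 48.4. At day 3 Impact led at 82.2 CPM per kilobase, followed by Snrpn at 42.3, and at day 10 Igf2 led at 684, followed by Peg10 at 240 and Peg3 at 166. By day 10 the number of genes with at least 100 CPM was 17. The summed level of all 35 genes ran from 2850 to 2990 CPM at day 0, from 3280 to 3380 CPM at day 3 and from 13800 to 14600 CPM at day 10, so the 3 days did not overlap.

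Between days 0 and 3 of wild type, 16 of 35 imprinted genes rose and 11 fell, by edgeR's quasi-likelihood test at an adjusted p under 0.05, where 60.9% of all 21060 genes in the test passed it (30.8% upward and 30.1% downward). The median log2 fold change (log2FC) was 0.39 over the 35 genes and 0.01 over all genes tested. Magel2, a ubiquitin-ligase regulator of the Snrpn-Ndn cluster, went from 0.315, 0.342 and 0.212 CPM to 22.1, 17.8 and 21.5 CPM, a 70.7-fold rise (log2FC 6.16 ± 0.19 SE, adjusted p = 9.43e-12). No day 3 library was near the day 0 libraries. Its neighbours Ndn, a growth-restraining protein of neurons, and Snrpn, which encodes a splicing protein, rose by 1.83 ± 0.12 and 2.01 ± 0.07 on the log2 scale. Nnat, a small membrane protein best known from developing neurons, rose 9.41-fold, and Peg3, a zinc-finger protein, rose 5.12-fold.

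All 5 genes of the Kcnq1 cluster fell between days 0 and 3. The transporter gene Slc22a18 fell by 2.61 ± 0.16 on the log2 scale, and Cdkn1c, an inhibitor of the cell cycle, fell by 2.26 ± 0.12, from 98.7 ± 8.31 to 20.2 ± 1.61 CPM. Ascl2, a transcription factor of the trophoblast, fell by 2 ± 0.19. The genes that fell in this interval thus included both maternally expressed ones, 5 of 11, and paternally expressed ones, 5 of 22.

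Between days 3 and 10, 24 of 35 imprinted genes rose and 6 fell, where 76.1% of all genes tested were called (39.6% higher and 36.5% lower). The median log2FC was 2.41 over the 35 genes and 0.02 over all genes tested. Of the paternally expressed genes 16 of 22 rose, and of the maternally expressed genes 6 of 11. The fetal growth factor gene Igf2 went from 7.04, 8.09 and 7.75 CPM to 3730, 3800 and 4210 CPM, a 513-fold rise (log2FC 9.01 ± 0.11, adjusted p = 6.08e-15). H19, the noncoding RNA that shares enhancers with Igf2 on chromosome 7, rose 240-fold, from 1.03 ± 0.283 to 246 ± 76.1 CPM. Dlk1, a membrane protein that holds back the differentiation of fat and other mesenchymal cells, rose 191-fold to 302 ± 16.2 CPM. The other large rises were those of Asb4, at 143-fold, the zinc-finger gene Plagl1, at 130-fold, Airn, at 114-fold, Rtl1, at 47.6-fold, and Zim1, at 44.6-fold. Over the same days the summed level of 6 mesenchyme markers, all detected in every group, went from between 21 and 29.6 CPM to between 5440 and 7090 CPM. The part of cell makeup in these rises was not tested.

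Genes of the same cluster did not always have their highest wild-type mean at the same day. Of the 35 genes, 5 had their highest mean at day 0, namely Kcnq1ot1, Phlda2, Ascl2, Slc22a18 and Zrsr1, of which 4 lie in the Kcnq1 cluster, whose other member here, Cdkn1c, was highest at day 10. A further 7 had it at day 3, namely Rian, Mirg, Snrpn, Magel2, Nespas, Zdbf2 and Impact, and 23 had it at day 10. Snrpn fell after day 3 by 2.69 ± 0.07 on the log2 scale while Ndn, in the same cluster, rose by 2.41 ± 0.11. Every gene of the Quaking KO line had its highest mean at the day it had in wild type. In the Sam68-labelled line this held for all but Meg3, which was highest at day 3 there, and Zrsr1, which was highest at day 10. The Meg3 rise in wild type between days 3 and 10 did not pass the test (log2FC 0.44 ± 0.2, adjusted p = 0.0592).

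**Figure D1:**
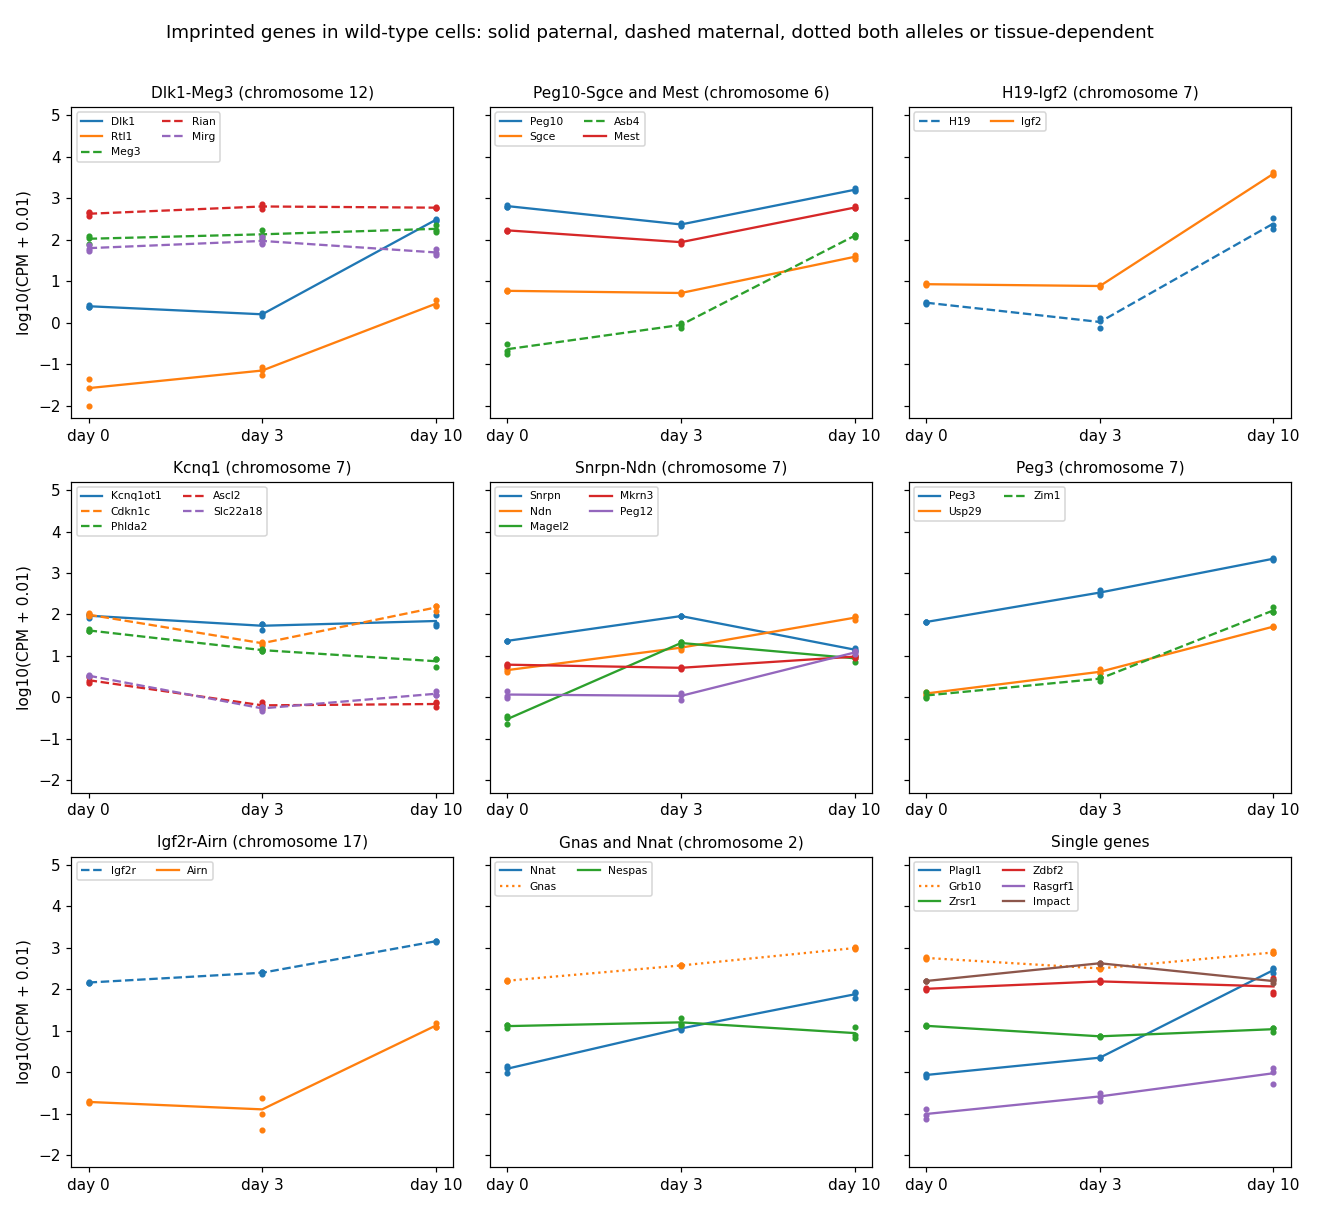
Levels of the 35 imprinted genes in wild-type cells at days 0, 3 and 10, as log10 of CPM plus 0.01, by cluster or chromosome. Points are libraries and lines join means of 3; solid lines mark paternally expressed genes, dashed lines maternally expressed ones. Igf2, H19, Dlk1, Asb4, Plagl1 and Airn climb steeply after day 3, while the Kcnq1 cluster falls between days 0 and 3.

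Against wild type, the Quaking KO line had many small differences in imprinted genes at day 0 and few at day 3. At day 0, 22 of the 33 imprinted genes tested were called, 2 higher and 20 lower, with a median log2FC of -0.36. Of all 19841 genes tested 39.7% were called (19.4% higher and 20.3% lower), with a median of 0. Rtl1 and Rasgrf1 had too few counts to be tested at day 0. The genes called lower were 13 of 20 paternally expressed and 7 of 11 maternally expressed genes, so both kinds were among them. At day 3, 5 of 34 were called, all lower, where 7.01% of all genes were called (3.08% higher and 3.93% lower), and the median was -0.04. Without replicate 1 of wild type at day 3 the count was 9. At day 10, 11 of 35 were called, 5 higher and 6 lower, where 11.7% of all genes were called (4.96% higher and 6.71% lower), and the median was -0.01. Without replicate 1, or without replicate 2, of the Quaking KO line at day 10, the count was 6.

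The Sam68-labelled line differed from wild type at most of the genes tested, imprinted genes among them. At day 0, 28 of 33 were called, 10 higher and 18 lower, where 74.4% of all genes tested were called (36.5% higher and 37.9% lower). At day 3, 27 of 34 were called, 11 higher and 16 lower, against 73.1% of all genes (36% and 37.1%). At day 10, 19 of 35 were called, 5 higher and 14 lower, against 50.6% of all genes (22.8% and 27.8%). The median log2FC was -0.24, -0.06 and -0.18 at days 0, 3 and 10, beside -0.01, 0 and -0.04 over all genes tested. Set directly against the Quaking KO line at day 0, 13 of 33 genes were higher and 9 lower, against 75.9% of all genes (38.9% and 37%). The numbers at day 3 were 10 and 11 of 34, against 72.1% of all genes (35.3% and 36.8%), and at day 10 they were 7 and 12 of 35, against 56.6% (25.9% and 30.7%). The difference from wild type itself changed between days 0 and 3 for 10 of 34 imprinted genes in the Quaking KO line, all upward, where 15.9% of all genes changed (9.45% upward and 6.45% downward), and for 13 of 34 in the Sam68-labelled line, where 33.8% changed. Between days 3 and 10 it changed for 2 of 35 in the Quaking KO line, both upward, against 3.58% of all genes (2.03% upward). In the Sam68-labelled line it changed for 23 of 35, 10 upward and 13 downward, against 54.2% of all genes (30.3% upward and 23.9% downward). Both knockout comparisons use the same wild-type libraries, so the values of the 2 lines are given side by side and no overlap between them is drawn.

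**Figure D2:**
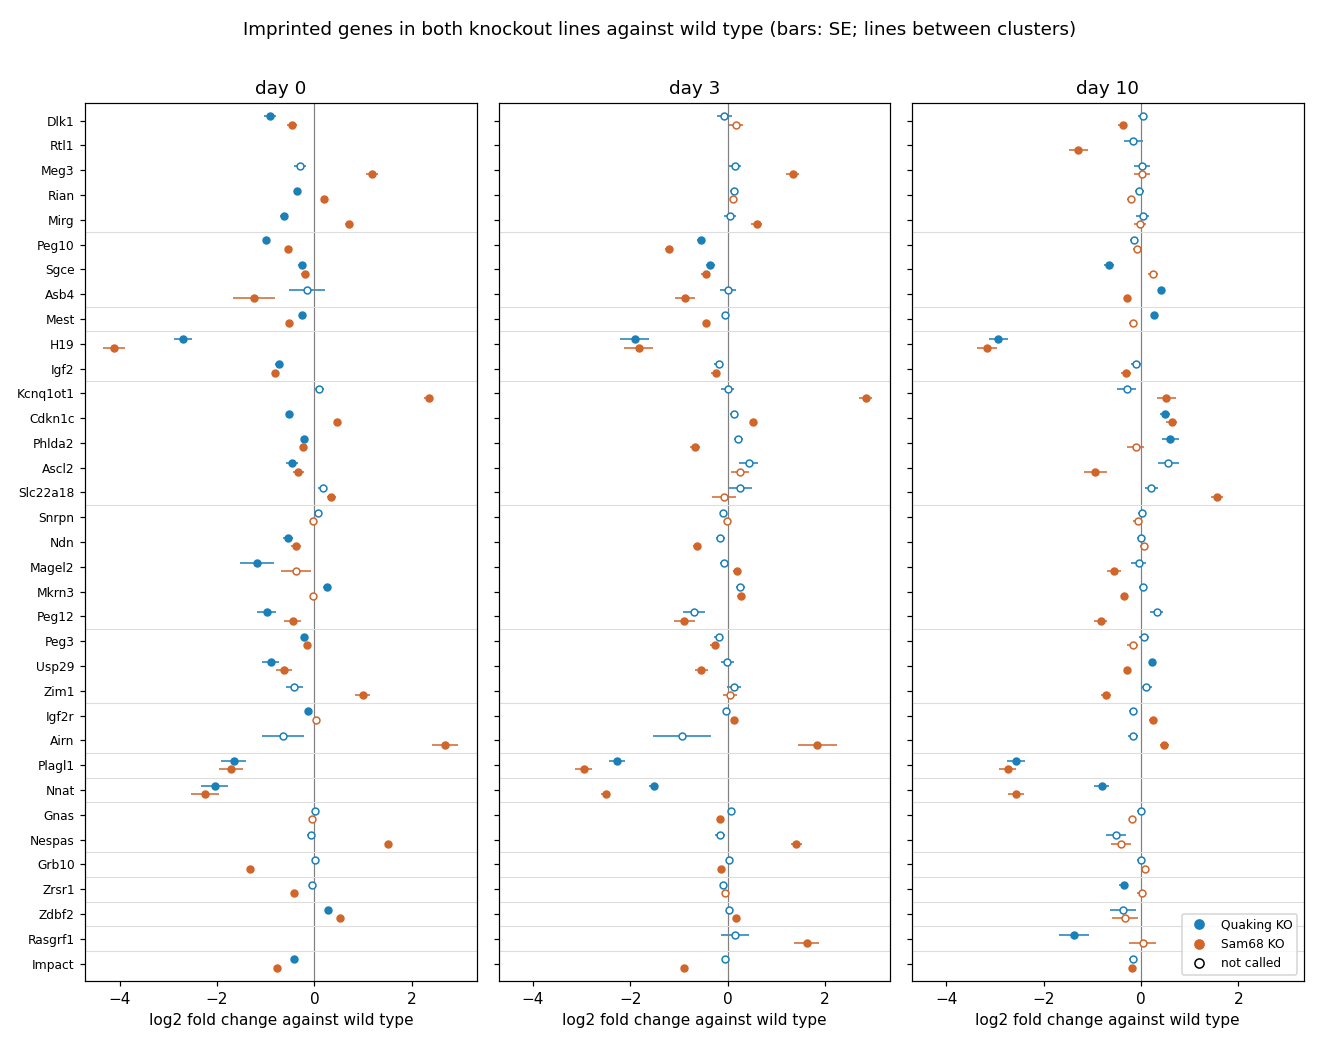
Log2 fold changes against wild type of the imprinted genes at days 0, 3 and 10, with bars of 1 SE; blue is the Quaking KO line, orange the Sam68-labelled line, and open points did not pass an adjusted p of 0.05. Grey lines separate clusters. The points of H19, Plagl1 and Nnat lie to the left of 0 on all 3 days, both lines being set against the same wild-type libraries, and Kcnq1ot1 and Airn lie to the right in the Sam68-labelled line.

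In the Quaking KO line Sgce, H19, Plagl1 and Nnat were called lower than wild type at each of the 3 days. Those called lower at each day in the Sam68-labelled line were Asb4, H19, Igf2, Peg12, Usp29, Plagl1, Nnat and Impact. Some of these calls did not hold when a library was left out. At day 10 Impact lost its call on leaving out any library except replicate 1 of wild type (adjusted p 0.0503 to 0.273). Asb4 at day 0, at 4 to 8 counts per library there, lost it without replicate 2 or 3, or replicate 1 of wild type. Peg12 at day 0 lost it without replicate 3 of that line or of wild type. Igf2 at day 3 lost it without replicate 3 of that line or replicate 2 of wild type. Each line is set against the same wild-type libraries, so the names that recur are no independent support. H19, Plagl1 and Nnat are given first. H19 is maternally expressed and Plagl1 and Nnat are paternally expressed, and they lie on chromosomes 7, 10 and 2. H19 is spliced into a noncoding RNA that also carries the precursor of miR-675. The mature forms from RefSeq are shown because that microRNA is the functional product best known from H19, with the seed (bases 2 to 8) in capitals. Their positions on GRCm38.p6 are chr7:142577112-142577133 and chr7:142577078-142577099, both on the minus strand within H19. The counts do not measure the mature forms.
mmu-miR-675-5p: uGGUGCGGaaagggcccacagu
mmu-miR-675-3p: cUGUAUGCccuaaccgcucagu

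H19 (chr7:142575529-142578143, minus strand, GRCm38) had 2.97, 2.86 and 3.2 CPM in wild type at day 0, 0.643, 0.287 and 0.479 CPM in the Quaking KO line, and 0.141, 0.146 and 0.203 CPM in the Sam68-labelled line. The 3 groups did not overlap, and the Sam68-labelled values were the lowest. H19 was 6.41-fold lower in the Quaking KO line (log2FC -2.7 ± 0.18, adjusted p = 7.58e-10) and 18.4-fold lower in the Sam68-labelled line (log2FC -4.12 ± 0.22, adjusted p = 5.62e-12). At day 10 the libraries had 186, 221 and 332 CPM in wild type, 30.9, 40 and 27.7 CPM in the Quaking KO line, and 25.7, 32 and 27.5 CPM in the Sam68-labelled line. The wild-type libraries again lay above all others, 7.5-fold (log2FC -2.93 ± 0.2, adjusted p = 2.8e-05) and 8.68-fold (log2FC -3.16 ± 0.21, adjusted p = 6.3e-07). Both knockout groups overlapped each other at day 10, where the lines differed by a log2FC of -0.23 ± 0.19 (adjusted p = 0.329). At day 3, with 12 to 86 counts per library, the log2FC was -1.91 ± 0.3 and -1.83 ± 0.3.

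Igf2, the paternally expressed partner of H19, did not show a difference of that size. It had 3730, 3800 and 4210 CPM in wild type at day 10, 4060, 3720 and 3230 CPM in the Quaking KO line, and 3100, 3370 and 3310 CPM in the Sam68-labelled line. The Quaking KO libraries overlapped those of wild type, with a log2FC of -0.11 ± 0.1 (adjusted p = 0.528). In the Sam68-labelled line Igf2 was called lower by 0.31 on the log2 scale, a call that did not hold without any 1 of its 3 libraries or without replicate 3 of wild type (adjusted p between 0.0735 and 0.138). At day 0 Igf2 was lower in both lines, from 8.44 ± 0.298 CPM to 5.14 ± 0.675 CPM in the Quaking KO line (log2FC -0.73 ± 0.08, adjusted p = 7.01e-07) and to 4.61 ± 0.204 CPM in the Sam68-labelled line (log2FC -0.8 ± 0.08). As a ratio of counts within each library, not corrected for length, H19 to Igf2 at day 10 was 0.0623 ± 0.0149 in wild type, 0.00898 ± 0.00162 in the Quaking KO line and 0.0087 ± 0.000696 in the Sam68-labelled line.

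Plagl1 encodes a zinc-finger transcription factor that restrains cell division, and Nnat encodes neuronatin. Their promoter windows of 300 bases (250 before the start and 50 after it), from RefSeq on GRCm38.p6, are shown because both genes were lower in both lines. Capitals mark the hexamer TGCCGC or its reverse complement GCGGCA, the core of the methylated motif that ZFP57 binds. Plagl1 is at chr10:13090582-13090881 and Nnat at chr2:157559828-157560127, both on the plus strand.
Plagl1: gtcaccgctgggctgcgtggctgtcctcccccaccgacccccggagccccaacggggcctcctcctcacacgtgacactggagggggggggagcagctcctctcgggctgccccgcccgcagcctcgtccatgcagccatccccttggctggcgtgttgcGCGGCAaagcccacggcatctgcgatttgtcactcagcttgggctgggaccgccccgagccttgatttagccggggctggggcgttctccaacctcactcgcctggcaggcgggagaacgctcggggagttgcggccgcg
Nnat: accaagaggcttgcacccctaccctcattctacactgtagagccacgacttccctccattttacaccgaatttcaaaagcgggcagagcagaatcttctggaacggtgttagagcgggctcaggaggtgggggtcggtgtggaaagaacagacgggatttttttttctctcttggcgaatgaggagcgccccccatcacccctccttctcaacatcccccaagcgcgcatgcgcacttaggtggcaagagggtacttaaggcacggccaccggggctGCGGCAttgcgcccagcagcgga

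Each of these windows held the hexamer once, at position 161 in Plagl1 and 278 in Nnat, counted from the first base shown. Over all 32851 windows of this length in the table, 11.6% held it on either strand, and no other motif was searched. Of the 43 windows of imprinted genes in this study 10 held it (23.3%), in 9 of the 28 genes with a window. The Mest windows at chr6:30737800-30738099 and chr6:30737803-30738102 overlap and are both among the 10. The hexamer itself holds a CpG pair, and the share was not corrected for CpG content. The number of CpG pairs was 26 in the Plagl1 window and 17 in the Nnat window, beside a median of 13 in the windows of the imprinted genes and 7 in all windows. Sgce, Peg10, Cdkn1c, Impact, H19, Nespas and Rtl1 had no entry. A match describes these letters only.

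Plagl1 had 317, 245 and 306 CPM in wild type at day 10, 63.5, 45.5 and 39.8 CPM in the Quaking KO line, and 38.2, 42.5 and 53.3 CPM in the Sam68-labelled line. Every wild-type library was above every other library, and both knockout groups overlapped each other. The differences from wild type were 5.83-fold (log2FC -2.57 ± 0.18, adjusted p = 2.8e-05) and 6.48-fold (log2FC -2.74 ± 0.18, adjusted p = 6.5e-07). At day 3, wild type had 2.15, 2.21 and 2.29 CPM, and the lines had 0.456 ± 0.0742 and 0.28 ± 0.00831 CPM. That was a log2FC of -2.28 ± 0.16 in the Quaking KO line and -2.96 ± 0.17 in the Sam68-labelled line. At day 0, with 8 to 54 counts per library, the log2FC was -1.66 ± 0.25 and -1.71 ± 0.25.

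Nnat had 10.5, 10.9 and 12.4 CPM in wild type at day 3, 3.61, 4 and 4.19 CPM in the Quaking KO line, and 2.07, 2.07 and 1.74 CPM in the Sam68-labelled line. The 3 groups did not overlap, with a log2FC against wild type of -1.52 ± 0.09 (adjusted p = 5.35e-08) and -2.51 ± 0.1 (adjusted p = 2.32e-11). At day 10 it had 62, 79.1 and 84.3 CPM in wild type, 43.5, 47.3 and 39.8 CPM in the Quaking KO line, and 10, 12.2 and 16.9 CPM in the Sam68-labelled line. The groups again stood in the same order without overlap, 1.73-fold and 5.77-fold below wild type (log2FC -0.81 ± 0.16, adjusted p = 0.00925, and -2.57 ± 0.17, adjusted p = 8.07e-07). Between the lines, Nnat was lower in the Sam68-labelled line by a log2FC of -0.99 ± 0.11 at day 3 and -1.76 ± 0.17 at day 10. At day 0, with 5 to 85 counts per library, the log2FC against wild type was -2.05 ± 0.28 in the Quaking KO line and -2.25 ± 0.28 in the Sam68-labelled line.

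Marker sums of other cell types also differed between the lines at day 10, and their part in these differences was not tested. The 5 primitive blood markers summed to 437 to 565 CPM in wild type, 321 to 412 CPM in the Quaking KO line and 131 to 192 CPM in the Sam68-labelled line. The 5 endothelium markers summed to 286 to 292, 245 to 258 and 206 to 218 CPM. Both sums were lower at day 10 in both lines with no overlap, as H19, Plagl1 and Nnat were. The 6 mesenchyme markers summed to 5440 to 7090 CPM in wild type, 4330 to 6640 CPM in the Quaking KO line and 2740 to 3880 CPM in the Sam68-labelled line, so the Quaking KO libraries overlapped wild type and the Sam68-labelled ones did not. The 6 heart muscle markers summed to 784 to 874, 219 to 453 and 1730 to 1870 CPM, lower in one line and higher in the other. The 9 extraembryonic endoderm markers summed to 2210 to 2990, 1660 to 1890 and 2730 to 3530 CPM, and the 4 macrophage markers to 149 to 201, 172 to 193 and 41.3 to 50.2 CPM. Between the 2 lines themselves, H19 and Plagl1 did not pass the test at day 10 (adjusted p = 0.329 and 0.415). H19, Plagl1 and Nnat were also called lower in both lines at days 0 and 3. The blood sums at day 0 were 0.537 to 0.833, 0.564 to 1.03 and 0.565 to 0.859 CPM, in the same order. The endothelium sums at day 0 were 71.8 to 75.2, 101 to 103 and 45.7 to 47.4 CPM. At day 3 the blood sums were 0.614 to 0.876, 0.533 to 0.738 and 0.391 to 0.697 CPM. Endothelium sums were then 6.74 to 7.56, 8.35 to 9.06 and 6.89 to 7.65 CPM. The endothelium marker Emcn had no counts in any line at day 0, nor in either knockout line at day 3. The blood markers Hbb-bh1 at day 0 and Hbb-y at day 3 had none in the Sam68-labelled line. Whether the sums at days 0 and 3 reflect those cell types was not tested.

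**Figure D3:**
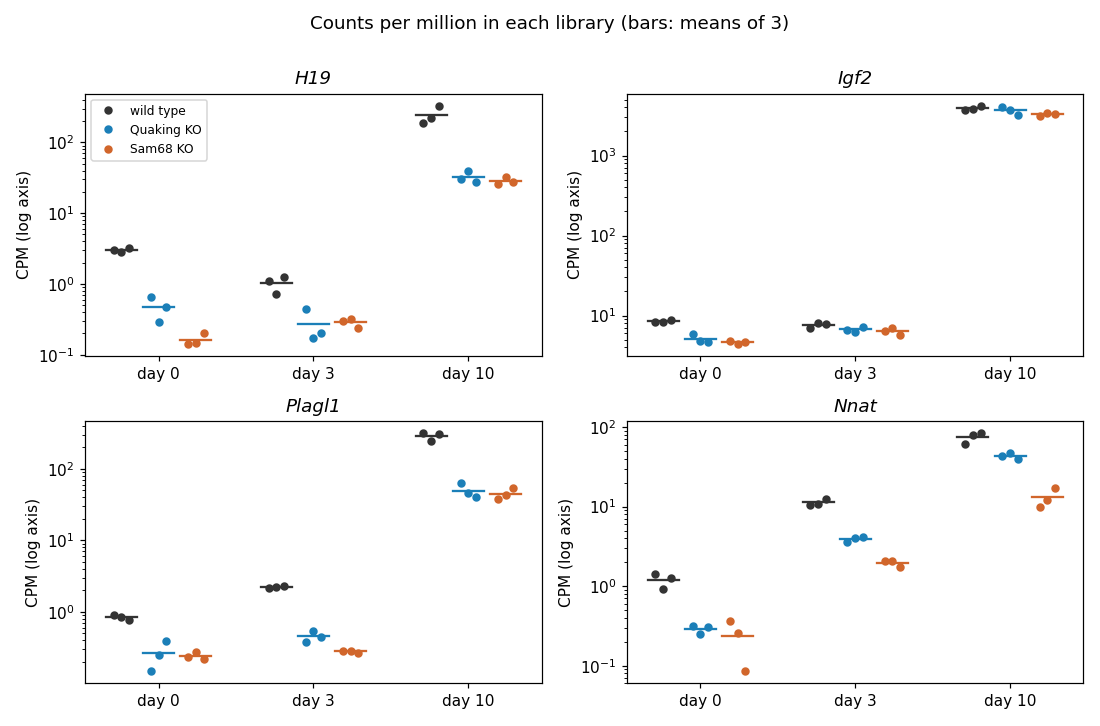
CPM of H19, Igf2, Plagl1 and Nnat in each of the 27 libraries on a log axis, by day and line; points are libraries and horizontal bars are means of 3. The wild-type points of H19, Plagl1 and Nnat lie above those of both other lines at each day, while Igf2 lies between 3100 and 4210 CPM in all libraries of day 10.

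The long noncoding RNAs of the imprinted clusters set the Sam68-labelled line apart from the others. At day 0, 6 of the 7 were called higher there and 1, H19, lower, with a median log2FC of 1.18, where 36.5% of all genes were called higher. Among the 6, Rian overlapped wild type, at 451 to 472 beside 371 to 459 CPM, and it was not called with DESeq2 (adjusted p = 0.0604). At day 3, 5 of 7 were called higher and at day 10, 2 of 7, where 36% and 22.8% of all genes were called higher. None of the 7 was called higher in the Quaking KO line at any day, and 3 of 7 were called lower at day 0, with 1 of 7, H19, lower at days 3 and 10. Of all genes, 19.4%, 3.08% and 4.96% were called higher in that line at days 0, 3 and 10 and 20.3%, 3.93% and 6.71% lower.

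Kcnq1ot1 (chr7:143203458-143296549, minus strand) is an unspliced RNA started on the paternal copy inside Kcnq1, and it keeps the genes around it silent on that copy. Airn plays the same role for Igf2r on chromosome 17, Nespas is an antisense RNA of the Gnas locus on chromosome 2, and Meg3 heads the maternally expressed RNAs on chromosome 12. Promoter windows of Kcnq1ot1 (chr7:143296498-143296797, minus strand) and Meg3 (chr12:109540746-109541045, plus strand) are shown, with the same hexamer in capitals. They are start sites of some of the cluster RNAs that were higher. The Meg3 window shown held it once, at position 61, the Kcnq1ot1 window did not hold it, and they had 13 and 9 CpG pairs. The windows of Airn, Rian and Mirg and a further Meg3 window, which are not shown, did not hold it.
Kcnq1ot1: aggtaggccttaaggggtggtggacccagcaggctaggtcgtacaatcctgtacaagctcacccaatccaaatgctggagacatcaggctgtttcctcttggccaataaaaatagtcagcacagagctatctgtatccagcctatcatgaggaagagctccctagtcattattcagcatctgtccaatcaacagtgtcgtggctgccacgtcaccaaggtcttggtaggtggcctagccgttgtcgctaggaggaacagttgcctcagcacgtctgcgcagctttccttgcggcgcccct
Meg3: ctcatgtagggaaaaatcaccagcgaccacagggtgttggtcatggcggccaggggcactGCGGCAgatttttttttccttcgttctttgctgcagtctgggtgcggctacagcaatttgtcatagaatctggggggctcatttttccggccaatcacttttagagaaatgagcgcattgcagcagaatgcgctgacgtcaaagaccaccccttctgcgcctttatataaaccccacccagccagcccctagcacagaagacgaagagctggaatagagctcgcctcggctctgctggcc

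Kcnq1ot1 had 96.1, 102 and 81.6 CPM in wild type at day 0, 120, 87.7 and 94.5 CPM in the Quaking KO line, and 433, 446 and 479 CPM in the Sam68-labelled line. The Sam68-labelled libraries were far above the others, which overlapped, and the rise was 4.86-fold (log2FC 2.35 ± 0.09, adjusted p = 4.23e-14). At day 3 it was 7.06-fold, with 392, 371 and 367 CPM against 60.4, 57.4 and 42.2 CPM in wild type (log2FC 2.83 ± 0.14, adjusted p = 1.25e-10). At day 10 the excess was smaller, with 89.4, 105 and 114 CPM against 96.2, 52.9 and 59.1 CPM, and the groups overlapped through replicate 1 of wild type. The log2FC there was 0.52 ± 0.19 (adjusted p = 0.0391), 0.84 without that library (adjusted p = 4.62e-05), and not called without replicate 2 or 3 of either group (adjusted p between 0.0654 and 0.129). The change of the log2FC between days 3 and 10 was itself called, at -2.23 ± 0.26 (adjusted p = 6.28e-06).

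Airn had 0.166, 0.179 and 0.196 CPM in wild type at day 0 and 1.11, 0.989 and 1.22 CPM in the Sam68-labelled line, or 10 to 12 counts against 61 to 72 counts per library. It was 6.14-fold higher there (log2FC 2.68 ± 0.26, adjusted p = 2.92e-08). At day 10, 13.2 ± 1.53 CPM in wild type stood beside 19 ± 1.02 CPM in that line (log2FC 0.48 ± 0.1, adjusted p = 0.00186). Igf2r, its target, which carries IGF2 to the lysosome, had 145 ± 0.823, 133 ± 9.46 and 141 ± 1.43 CPM at day 0 in wild type, the Quaking KO line and the Sam68-labelled line. Its day 10 levels were 1430 ± 57.9, 1300 ± 63.7 and 1750 ± 63.8 CPM in that order. Its log2FC in the Sam68-labelled line at day 10 was 0.24 ± 0.08, called at an adjusted p of 0.0227 but not without replicate 1 of that group (0.0678) or replicate 3 of wild type (0.067). Igf2r was not called lower in that line at any day. Counts summed over both copies do not show silencing of the paternal copy, which was not tested.

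Nespas had 12.8 ± 1.15 CPM in wild type at day 0, 12.3 ± 1.02 CPM in the Quaking KO line and 34.7 ± 1.18 CPM in the Sam68-labelled line, 2.71-fold above wild type (log2FC 1.51 ± 0.06, adjusted p = 1.51e-13). At day 3 it was 2.64-fold above wild type, and at day 10 it was not called, with 6.75 ± 0.442 CPM beside 8.71 ± 2.82 CPM. On 38.5% of its exonic bases Nespas overlaps exons on the other strand, those of Gnas among them, and the strand setting of the counting is not given in the sources used here. Gnas itself, which encodes the stimulatory G protein subunit, had 160 ± 4.68, 164 ± 3.04 and 146 ± 2.4 CPM at day 0. The log2FC of Gnas in the Sam68-labelled line was -0.05 ± 0.03 (adjusted p = 0.135).

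**Figure D4:**
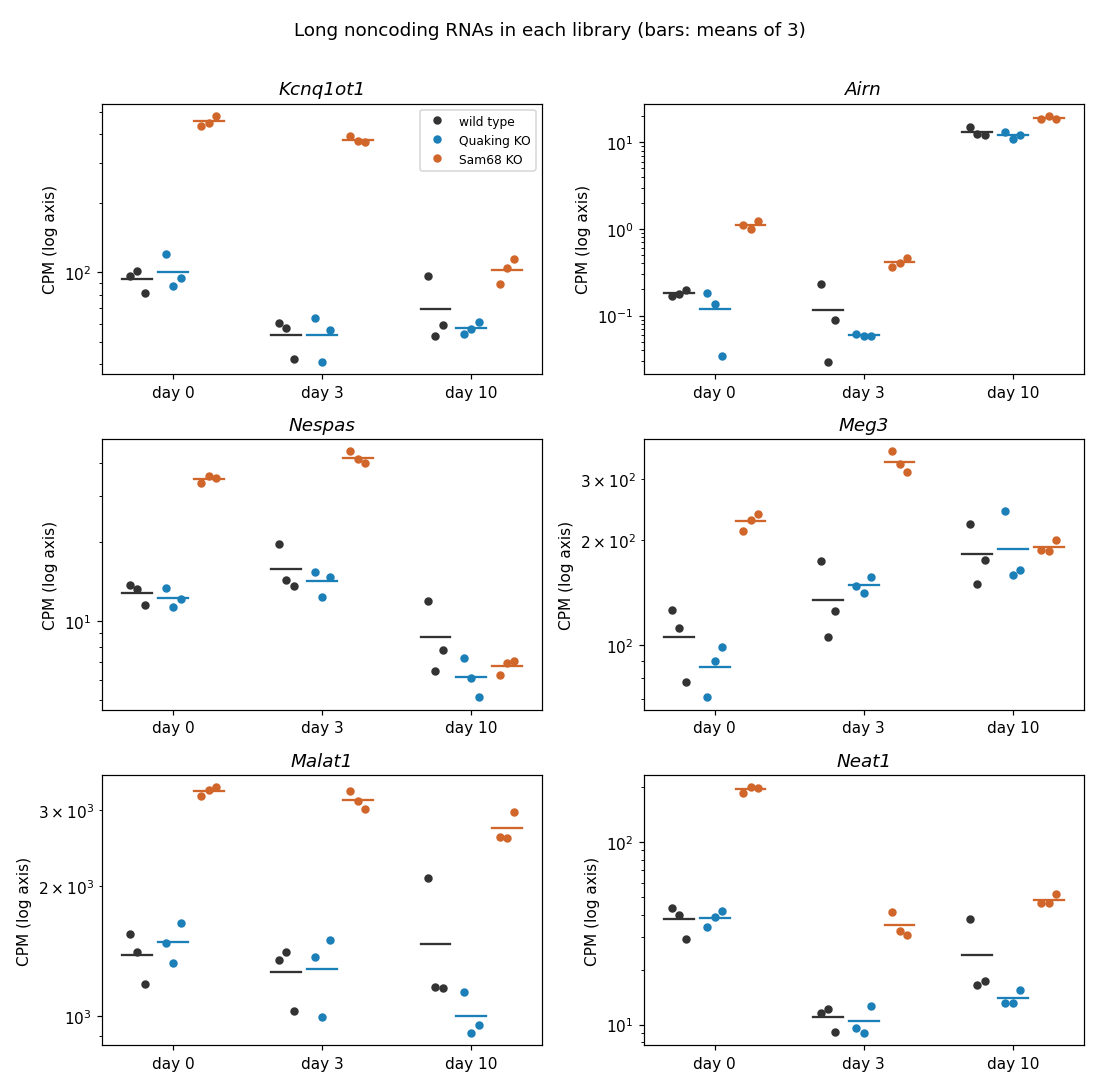
CPM of 4 imprinted noncoding RNAs and, for reference, the nuclear RNAs Malat1 and Neat1 in each library on log axes, by day and line; points are libraries and bars are means of 3. In the Sam68-labelled libraries all 6 RNAs lie above wild type at days 0 and 3, and at day 10 Airn, Malat1 and Neat1 do.

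Other nuclear and long noncoding RNAs moved with these genes in the Sam68-labelled libraries. Malat1 had 3250 to 3400 CPM there at day 0, beside 1190 to 1550 CPM in wild type and 1330 to 1640 CPM in the Quaking KO line, and Neat1 had 186 to 200 CPM beside 29.4 to 43.7 and 34.3 to 41.9 CPM. Long noncoding RNAs as a class took 3.26% to 3.63% of the counts in that line at day 0, and 1.93% to 2.26% in wild type. The class took, at day 10, 1.3% to 1.42% there and 1.05% to 1.53% in wild type, an overlap. Their part in the higher Kcnq1ot1, Airn, Nespas and Meg3 was not tested.

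The Dlk1-Meg3 cluster lies on chromosome 12. Its maternal noncoding RNAs Meg3 and Mirg were higher, and its paternal gene Dlk1 lower, at day 0 in the Sam68-labelled line. Meg3 had 126, 112 and 77.9 CPM in wild type at day 0, 70.5, 89.6 and 98.5 CPM in the Quaking KO line, and 213, 229 and 239 CPM in the Sam68-labelled line. The wild-type and Quaking KO libraries overlapped (adjusted p = 0.0612) and the Sam68-labelled ones lay above both, 2.15-fold over wild type (log2FC 1.18 ± 0.12, adjusted p = 6.09e-08). At day 3 the log2FC was 1.33 ± 0.13 in that line, and at day 10 it was 0.02 ± 0.16. Mirg, a host of many microRNAs, was also higher there at day 0, at 97.4 ± 0.913 CPM beside 62.6 ± 9.98 CPM (log2FC 0.71 ± 0.08), while in the Quaking KO line it was lower, at 40.7 ± 3.75 CPM (log2FC -0.63 ± 0.08, adjusted p = 4.39e-06). Rian, which hosts small nucleolar RNAs, had 423 ± 46, 332 ± 21.3 and 458 ± 12.3 CPM at day 0 in wild type, the Quaking KO line and the Sam68-labelled line. The wild-type and Sam68-labelled libraries of Rian overlapped, and without replicate 3 of wild type its log2FC between them was 0.09.

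Dlk1 had 2.4, 2.41 and 2.61 CPM in wild type at day 0, 1.27, 1.28 and 1.44 CPM in the Quaking KO line, and 1.76, 1.86 and 1.51 CPM in the Sam68-labelled line. The groups did not overlap and both lines were below wild type (log2FC -0.91 ± 0.12, adjusted p = 6.86e-06, and -0.46 ± 0.11, adjusted p = 0.00135). By day 10 the Quaking KO line, at 313 ± 53.2 CPM, was not distinguished from wild type at 302 ± 16.2 CPM, and the Sam68-labelled line had 239 ± 7.66 CPM (log2FC -0.38 ± 0.1, adjusted p = 0.00904). Rtl1, a paternally expressed protein of retroviral origin needed in the placenta, had 2.49, 2.63 and 3.41 CPM in wild type at day 10 and 1.37, 0.96 and 1.25 CPM in the Sam68-labelled line. The groups did not overlap, with a log2FC of -1.29 ± 0.2 (adjusted p = 0.000266). The Quaking KO libraries of day 10 had 2.59 ± 0.556 CPM of Rtl1 (adjusted p = 0.657). At 0 to 14 counts per library, Rtl1 was too low for a test at days 0 and 3 by day.

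In the Peg10-Sgce cluster on chromosome 6, both paternally expressed genes were called lower than wild type at days 0 and 3 in each line, and Sgce also at day 10 in the Quaking KO line. Peg10, a protein of retroviral origin that the placenta needs, had 686, 625 and 628 CPM in wild type at day 0, 340, 322 and 314 CPM in the Quaking KO line, and 420, 423 and 418 CPM in the Sam68-labelled line. The groups did not overlap, with a log2FC of -1 ± 0.04 (adjusted p = 5.27e-13) and -0.55 ± 0.04 (adjusted p = 3.2e-10). At day 3 the order of the lines was turned. The Quaking KO line had 159 ± 17.8 CPM and the Sam68-labelled line 101 ± 9.76 CPM beside 233 ± 20.4 CPM in wild type (log2FC -0.55 ± 0.08, adjusted p = 0.000584, and -1.2 ± 0.08, adjusted p = 5.27e-09). At day 10 the 3 groups lay between 1410 and 1730 CPM and neither line was called.

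Sgce, which encodes a sarcoglycan of the cell membrane and shares a promoter region with Peg10, had 34.2, 43.3 and 38.5 CPM in wild type at day 10, 22.9, 23.9 and 28 CPM in the Quaking KO line, and 50.5, 48.9 and 43.3 CPM in the Sam68-labelled line. The Quaking KO libraries lay below all wild-type libraries (log2FC -0.66 ± 0.1, adjusted p = 0.00259), and the Sam68-labelled ones started where the wild-type range ended and were not called (adjusted p = 0.0578). At day 3 the log2FC of Sgce in the Quaking KO line was -0.36 ± 0.09 (adjusted p = 0.0171), not called without replicate 1 (0.0525) or 3 (0.0561) of that group or replicate 3 of wild type (0.057). In the Sam68-labelled line Sgce had 4.82 ± 0.206 CPM at day 0, beside 5.83 ± 0.199 CPM for wild type (log2FC -0.2 ± 0.07, adjusted p = 0.0151), not called without replicate 1 of that group (0.0677). Its day 3 values were 3.75 ± 0.101 beside 5.17 ± 0.278 CPM (log2FC -0.45 ± 0.09, adjusted p = 0.000233). Over all genes tested on chromosome 6 the median log2FC was -0.18 in each line at day 0, -0.07 in the Quaking KO line and -0.1 in the Sam68-labelled line at day 3, and -0.1 and -0.14 at day 10. Asb4, a maternally expressed gene of this cluster whose product targets proteins for degradation, had 129, 117 and 128 CPM in wild type at day 10, 187, 168 and 152 CPM in the Quaking KO line, and 103, 106 and 108 CPM in the Sam68-labelled line. These groups did not overlap, and Asb4 was higher in the Quaking KO line by 0.41 ± 0.07 and lower in the Sam68-labelled line by a log2FC of -0.28 ± 0.07.

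Mest, a paternally expressed gene for a hydrolase-like protein elsewhere on chromosome 6, had 168 ± 6.19 CPM in wild type at day 0, 142 ± 3.5 CPM in the Quaking KO line and 111 ± 2.19 CPM in the Sam68-labelled line. The log2FC was -0.25 ± 0.03 and -0.52 ± 0.03. On 23.1% of its exonic bases Mest overlaps Copg2 on the other strand, and Copg2 moved with it, from 85.5 to 91.7 CPM in wild type to 43.5 to 45.9 CPM in the Sam68-labelled line at day 0.

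**Figure D5:**
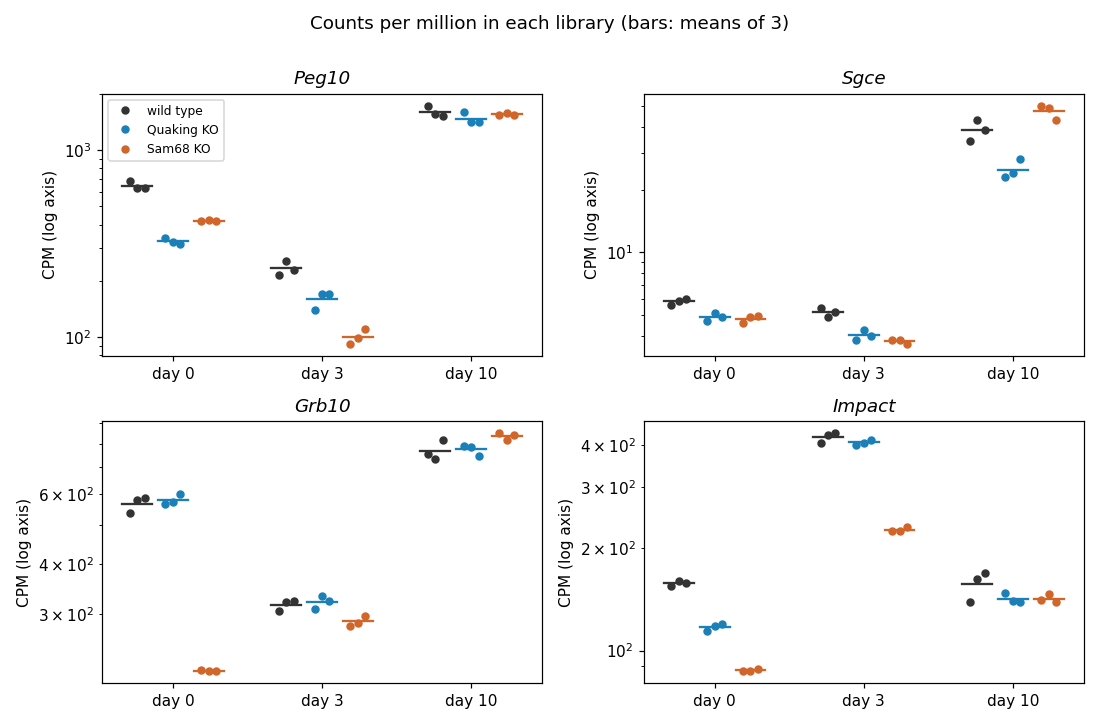
CPM of Peg10, Sgce, Grb10 and Impact in each library on log axes, by day and line; points are libraries and bars are means of 3. Peg10 is below wild type in both lines at days 0 and 3 and level at day 10, Sgce is low in the Quaking KO line at day 10, and Grb10 lies near 216 CPM in the Sam68-labelled line at day 0.

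In the Kcnq1 cluster the maternally expressed genes differed from wild type in both directions in the Sam68-labelled line. Counts summed over both copies do not show silencing of the paternal copy, which was not tested. Cdkn1c had 95.7, 92.3 and 108 CPM in wild type at day 0 and 130, 131 and 129 CPM in the Sam68-labelled line, higher by 0.47 ± 0.05 on the log2 scale, and it was called higher there at days 3 and 10 too. At day 10 it had 118, 164 and 160 CPM in wild type, 207, 218 and 205 CPM in the Quaking KO line and 245, 219 and 238 CPM in the Sam68-labelled line, so both lines lay above wild type. The log2FC was 0.49 ± 0.11 in the Quaking KO line (adjusted p = 0.0131, and 0.0574 without its replicate 2) and 0.63 ± 0.11 in the Sam68-labelled line (adjusted p = 0.000534). An uncharacterised gene on the other strand, Gm44732, overlaps 30.7% of the exonic bases of Cdkn1c. Phlda2, which restrains placental growth, was lower in the Sam68-labelled line at days 0 and 3, from 13.8 ± 0.982 to 8.59 ± 0.925 CPM at day 3 (log2FC -0.67 ± 0.1).

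Slc22a18 had 1.11, 1.39 and 1.13 CPM in wild type at day 10, 1.45, 1.44 and 1.37 CPM in the Quaking KO line, and 3.77, 3.8 and 3.49 CPM in the Sam68-labelled line. The last group stood alone, 3.04-fold above wild type (log2FC 1.56 ± 0.13, adjusted p = 2.85e-06), and at day 3 Slc22a18 was not called (log2FC -0.08 ± 0.25). Ascl2, under 1 CPM from day 3 on in wild type, had 0.681 ± 0.0943 CPM at day 10 and 0.365 ± 0.0942 CPM in the Sam68-labelled line. At day 0 Ascl2 was called lower in that line, at 1.95 ± 0.221 beside 2.58 ± 0.393 CPM. That call was lost without replicate 3 of that line (adjusted p = 0.115) or of wild type (0.137). Phlda2 had, in the Quaking KO line at day 10, 10.5, 10.6 and 13.2 CPM beside 5.53, 8.53 and 8.22 CPM, a log2FC of 0.6 ± 0.17. Its adjusted p of 0.0421 rose to between 0.0566 and 0.133 without any 1 of the 3 Quaking KO libraries, replicate 1 or 3 of wild type, or replicate 2 of the Sam68-labelled line.

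The Snrpn-Ndn cluster on chromosome 7, which is lost or silenced in the human Prader-Willi syndrome, holds Snrpn, which was not called, and Ndn, which was called lower in both lines at day 0 and in the Sam68-labelled line at day 3. Snrpn was the 1 imprinted gene of the 35 that was called in no comparison of either line with wild type. It had 23.1 ± 0.3, 24.4 ± 1.42 and 21.3 ± 0.561 CPM at day 0 and 91.3 ± 1.19, 85.8 ± 3.11 and 90.2 ± 7.61 CPM at day 3, and its log2FC lay between -0.09 and 0.07 in all 6 comparisons. It overlaps Snurf and a predicted gene on 27.3% of its exonic bases, so its count may be split with them. Ndn was lower in both lines at day 0, with 4.53 ± 0.494 CPM in wild type and 3.14 ± 0.4 and 3.31 ± 0.125 CPM in the lines. At day 3 it had 14.2, 15.6 and 17.6 CPM in wild type and 10.3, 9.3 and 10.8 CPM in the Sam68-labelled line, which did not overlap (log2FC -0.63 ± 0.09, adjusted p = 1.25e-05). It was not called in the Quaking KO line at day 3 (adjusted p = 0.38) or in either line at day 10.

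Peg12, which binds the kinase GSK3, had 10.9, 12.5 and 12.8 CPM in wild type at day 10, 13.5, 16 and 16.4 CPM in the Quaking KO line, and 6.79, 5.9 and 8.27 CPM in the Sam68-labelled line. The Sam68-labelled libraries were the lowest (log2FC -0.83 ± 0.13, adjusted p = 0.000275), and the Quaking KO libraries, all above wild type, were not called (adjusted p = 0.133). At day 0, at 1.16 ± 0.253 CPM in wild type and 0.591 ± 0.0407 CPM in the Quaking KO line, the log2FC was -0.98 ± 0.19 (adjusted p = 0.000388). At day 3 it was -0.89 ± 0.22 in the Sam68-labelled line (adjusted p = 0.00206). Magel2 at day 10 had 8.73 ± 1.38 CPM in wild type and 6.11 ± 1.24 CPM in the Sam68-labelled line, and Mkrn3, which codes for a ring-finger protein, had 9.59 ± 0.521 and 7.78 ± 0.363 CPM, with a log2FC of -0.56 ± 0.15 and -0.35 ± 0.07.

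In the Peg3 cluster, at the other end of chromosome 7, Peg3 was the most abundant gene at all 3 days. Peg3 had 65.8 ± 0.814 CPM in wild type at day 0, 57.4 ± 1.58 CPM in the Quaking KO line and 56.3 ± 0.734 CPM in the Sam68-labelled line, with a log2FC of -0.21 ± 0.03 and -0.15 ± 0.03. Usp29, a paternally expressed gene of the deubiquitinase family, had 1.23 ± 0.128, 0.664 ± 0.0627 and 0.755 ± 0.0838 CPM, lower in both lines (log2FC -0.9 ± 0.17, adjusted p = 0.000242, and -0.63 ± 0.16, adjusted p = 0.00159). On 14.3% of its exonic bases Usp29 overlaps Zim3 on the other strand. Zim1, a maternally expressed zinc-finger gene, had 1.31, 1.01 and 0.98 CPM in wild type at day 0 and 1.9, 2.04 and 2.28 CPM in the Sam68-labelled line (log2FC 0.99 ± 0.15, adjusted p = 6.67e-06). Day 10 showed the opposite order, with 150, 112 and 114 CPM in wild type and 77.8, 79.9 and 77.9 CPM in that line (log2FC -0.72 ± 0.11, adjusted p = 0.000339). The Quaking KO line had 138 ± 16.4 CPM of Zim1 at day 10 (adjusted p = 0.605).

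Grb10, which encodes an adaptor that limits insulin and growth factor signalling, had 538, 578 and 584 CPM in wild type at day 0, 566, 572 and 600 CPM in the Quaking KO line, and 217, 216 and 215 CPM in the Sam68-labelled line. The wild-type and Quaking KO libraries overlapped, and the Sam68-labelled ones lay 2.62-fold below wild type (log2FC -1.32 ± 0.03, adjusted p = 9.89e-17). At day 10 that line had 852, 818 and 841 CPM beside 756, 735 and 816 CPM (adjusted p = 0.346). At day 3 it had 287 ± 9.09 CPM beside 316 ± 9.94 CPM, and the change of the log2FC between days 0 and 3 was 1.21 ± 0.05 (adjusted p = 9.68e-13). Impact, a paternally expressed regulator of protein synthesis, was lower at day 3 in the Sam68-labelled line, at 223, 224 and 230 CPM beside 405, 427 and 433 CPM in wild type (log2FC -0.89 ± 0.04, adjusted p = 8.96e-11). In the Quaking KO line at day 3 Impact had 406 ± 7.42 CPM (adjusted p = 0.501), and at day 0 it was lower in both lines, with 157 ± 2.53, 117 ± 3.04 and 87.5 ± 0.792 CPM.

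Zrsr1, Zdbf2 and Rasgrf1 are each the only member of their domain in the list. Zrsr1, a paternally expressed splicing factor gene, had 13 ± 0.473 CPM in wild type at day 0 and 9.21 ± 0.717 CPM in the Sam68-labelled line (log2FC -0.42 ± 0.06). In the Quaking KO line at day 10 its log2FC was -0.36 ± 0.1 with an adjusted p of 0.0385. That call was lost (adjusted p between 0.0593 and 0.153) without any 1 of the 9 libraries of that day other than replicate 1 of wild type. Zdbf2, a paternally expressed zinc-finger gene, had 102 ± 6.23, 124 ± 9.06 and 140 ± 3.9 CPM at day 0, higher in both lines (log2FC 0.27 ± 0.05 and 0.53 ± 0.05). At day 10 it had 187, 74.7 and 87 CPM in wild type, replicate 1 being the high one, and neither line was called. Rasgrf1, a Ras activator, had 1.02, 1.25 and 0.513 CPM in wild type at day 10 and 0.337, 0.401 and 0.349 CPM in the Quaking KO line, groups that did not overlap. It was called lower there (log2FC -1.38 ± 0.3, adjusted p = 0.0141), but not without replicate 1 of that group (0.0534) or replicate 2 of wild type (0.0543). At day 3 Rasgrf1 had 0.246, 0.19 and 0.31 CPM in wild type and 0.871, 0.644 and 0.766 CPM in the Sam68-labelled line, groups that did not overlap (log2FC 1.62 ± 0.25, adjusted p = 2.54e-05), on 43 to 55 counts per library in that line.

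A list of 20 genes that set or keep imprints, chosen with earlier results of these data known, was read beside the members. In wild type 12 of the 20 fell and 4 rose between days 0 and 3, where 30.1% and 30.8% of all genes did. Tet2, a demethylating enzyme, fell by 4.48 ± 0.11 on the log2 scale, Dnmt3l, a cofactor of methylation, by 4.06 ± 0.11, and Zfp57 by 3.76 ± 0.1, from 422 to 30.4 CPM. In the Quaking KO line 15 of 20 were called at day 0, 10 higher and 5 lower, where 39.7% of all genes were called (19.4% and 20.3%), among them the methyltransferase genes Dnmt3b, from 218 to 149 CPM (log2FC -0.56 ± 0.03), and Dnmt3a, from 156 to 110 CPM (log2FC -0.52 ± 0.03). Dppa3, which protects maternal methylation in the egg and early embryo, went from 3.38 to 0.558 CPM (log2FC -2.61 ± 0.15, adjusted p = 7.23e-11). In the Sam68-labelled line 19 of 20 were called at day 0, 9 higher and 10 lower, where 74.4% of all genes were called (36.5% and 37.9%). Dppa3 was at 0.667 CPM there (log2FC -2.26 ± 0.14), Dnmt3a at 94.3 CPM (log2FC -0.65 ± 0.03) and Zfp42, a zinc-finger gene of the pluripotent state, at 397 beside 640 CPM. The genes named so far for the 2 lines were all lower, but others of the list lay above wild type. Zfp57 had 422, 518 and 562 CPM at day 0 in wild type, the Quaking KO line and the Sam68-labelled line. Tet2 had 360, 492 and 475 CPM in that order, and Trim28 had 2110, 2530 and 1760 CPM. At day 3, 4 of 20 were called in the Quaking KO line and 16 of 20 in the Sam68-labelled line, beside 7.01% and 73.1% of all genes. At day 10 the counts were 6 and 7 of 19, beside 11.7% and 50.6%.

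A second list of 50 genes lies next to the members in the same clusters and is imprinted in some tissues only or not at all. At day 0, 24 of 41 tested were called in the Quaking KO line, 13 higher and 11 lower, with a median log2FC of 0.02, where 39.7% of all genes were called (19.4% and 20.3%) and 20 of 33 imprinted genes were called lower. At days 3 and 10, 3 of 38 and 9 of 44 neighbours were called in that line, beside 7.01% and 11.7% of all genes. The Sam68-labelled line had 29 of 41 called at day 0, 21 of 38 at day 3 and 21 of 44 at day 10, or 70.7%, 55.3% and 47.7%, beside 74.4%, 73.1% and 50.6% of all genes. Atp10a, beyond the Snrpn-Ndn cluster, was the neighbour with the smallest p in the Quaking KO line at day 0, at 2.36 beside 11.9 CPM (log2FC -2.34), and Copg2 that in the Sam68-labelled line, at 44.7 beside 88.2 CPM (log2FC -0.9). Whether the members and their neighbours differed as groups was not tested.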

How the data were processed

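Total RNA of mouse E14 embryonic stem cells and embryoid bodies was depleted of ribosomal RNA and sequenced as stranded libraries in paired reads of 125 bases, per the labels' protocols. Per the submitters' processing notes, which give no roles, the tools were STAR 2.5.3a and bcl2fastq 2.17.1.14 and the build was GRCm38 (mm10). The deposited files hold raw counts per gene for 27 libraries, while the program, strand setting and gene models behind the counting were not given in the sources used here. Of 51826 gene identifiers, 51633 (99.6%) matched GENCODE M21.

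Tests used edgeR 4.0.16 (R 4.3.3): filterByExpr with a minimum count of 10 and a minimum total of 15, TMM factors, the quasi-likelihood test, and Benjamini-Hochberg adjustment over all genes tested, called at 0.05. The 9 libraries of a day, or of wild type over days, shared 1 fit, and changes of a difference between days were interaction terms over 12 libraries. Printed levels are TMM-scaled CPM with no pseudocount, as mean ± SD with n = 3, while a fold is the ratio of such means. Values after ± beside a log2FC are standard errors. P-values measure the spread between these libraries of 1 line each.

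The members and gene lists were chosen with earlier results of these data known. Full statistics went to at most 8 called members of a comparison with the largest log2FC at 1 CPM or more, and the statistics of other members were chosen after their values were seen. Alternatives were RLE factors, TMM from protein-coding genes, no filter, DESeq2 1.42.0, a replicate block, the 6 libraries compared alone, and leaving out each library.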

Additional observations from a re-analysis of the deposited data

Results flagged for a closer look

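The imprinted genes below are those for which the difference from wild type itself changed between 2 days, by edgeR's interaction test. Each change is on the log2 scale, later day minus earlier day, with its SE and adjusted p, and wild-type libraries are shared by both lines. The causes were not tested.

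In the Quaking KO line 10 of 34 imprinted genes changed between days 0 and 3, all upward, where 15.9% of all genes tested changed. Ascl2 changed by 0.89 ± 0.23 (adjusted p = 0.0142), Usp29 by 0.88 ± 0.23 (0.0132) and Dlk1 by 0.83 ± 0.19 (0.00495). These genes were called lower than wild type at day 0 and not called at day 3. Mirg changed by 0.67 ± 0.2 (0.0282), a change not called without any 1 of 6 libraries, among them replicates 2 and 3 of the Quaking KO line at day 0 (0.0713 and 0.0654). Between days 3 and 10, 2 of 35 changed, where 3.58% of all genes did. Peg12 changed by 1.02 ± 0.26 (0.0451) and Nnat by 0.72 ± 0.16 (0.0203). Neither was called without replicate 1 of the Quaking KO line at day 3 (0.123 and 0.0647), replicate 2 of that line at day 10 (0.08 and 0.058) or replicate 3 of wild type at day 3 (0.117 and 0.0653). Without replicate 3 of the Quaking KO line at day 3 (0.132) or at day 10 (0.0671), or replicate 2 of wild type at day 3 (0.147) or at day 10 (0.066), Peg12 was not called either.

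In the Sam68-labelled line 13 of 34 imprinted genes changed between days 0 and 3, where 33.8% of all genes did. H19 changed by 2.31 ± 0.37 (adjusted p = 6.27e-05), its day 0 difference resting on 9 to 12 counts per library in that line. Plagl1 changed by -1.24 ± 0.28 (0.00184), Grb10 by 1.21 ± 0.05 (9.68e-13) and Zim1 by -0.92 ± 0.21 (0.00161). Between days 3 and 10, 23 of 35 changed, where 54.2% of all genes did. Kcnq1ot1 changed by -2.23 ± 0.26 (6.28e-06), Nespas by -1.74 ± 0.24 (3.75e-05) and Slc22a18 by 1.72 ± 0.26 (7.77e-05). Rtl1 changed by -2.73 ± 0.47 (0.000202), which rests on 12 counts in wild type and 34 in the Sam68-labelled line over the 3 libraries of day 3. Of the 7 noncoding RNAs 6 changed downward in this interval, where 23.9% of all genes did. The change of H19 (adjusted p = 0.0438) was not called without any 1 of 6 libraries (0.0508 to 0.0989), and that of Airn (0.017) not without replicate 2 of wild type at day 3 (0.0516). Neat1, which is no imprinted gene, had 35.1 ± 5.69 beside 10.9 ± 1.61 CPM in wild type at day 3 and 48.1 ± 3.03 beside 23.9 ± 12.2 CPM at day 10, so its ratio to wild type was also smaller at day 10. The same held for Malat1, with 3170 ± 147 beside 1270 ± 205 and 2730 ± 217 beside 1470 ± 534 CPM. Much of both smaller ratios rests on replicate 1 of wild type at day 10. That library had 38.1 CPM of Neat1 beside 16.4 and 17.4, and 2090 CPM of Malat1 beside 1170 and 1160. Without it the change of Kcnq1ot1 was -1.95.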

How the results depend on the processing

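Of 279 calls on imprinted genes, those lost numbered 3 with RLE factors, 14 with TMM from protein-coding genes, 5 with no filter, 10 with DESeq2 and 168 of 2655 on leaving out 1 library, and none changed direction under these alternatives. In the Quaking KO line at day 3, 5 genes were called, 8 with a block on the 6 libraries compared, and 4 to 9 without 1 library. At day 10, 11 were called, 7 from the 6 libraries compared alone, and 6 to 12 without 1 library. Its change between days 3 and 10 held 2 genes, 6 with no filter, 4 with DESeq2, and 0 to 4 without 1 library.

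In no pair of groups did all same-numbered libraries correlate above 0.1. Replicate 1 alone correlated at 0.16 between the Quaking KO line and wild type at day 3. It correlated at 0.15 between wild type at day 10 and each of these groups. The mitochondrial ribosomal RNA mt-Rnr2 had its highest share in replicate 1 of each wild-type and Quaking KO group. In wild type at day 3 that share was 9.53% beside 6.54% and 5.82%. A structure shared by replicate 1 was not tested on its own. With a replicate block 4 of the 279 calls were lost, and the Quaking KO line had 22, 7 and 9 genes called at days 0, 3 and 10, and the Sam68-labelled line 28, 27 and 18. Over all genes the block gave 1891 calls in the Quaking KO line at day 3, where 1381 were called without it. TMM from protein-coding genes lowered the change of the Sam68-labelled line between days 3 and 10 by a shift of -0.18 at the median gene, and moved the share of higher calls from 55.8% to 40%. Without replicate 1 of wild type at day 10, 12 and 22 genes were called in the Quaking KO and Sam68-labelled lines at that day. Rtl1, Airn, H19, Plagl1 and Asb4 had few counts before day 10, which limits their precision there.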

Other observations

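The gene that hosts Kcnq1ot1 on the other strand, Kcnq1, was looked up after its values were seen. It had 0.694 CPM in wild type and 1.42 CPM in the Sam68-labelled line at day 0 (log2FC 1.1 ± 0.17), when Kcnq1ot1 was 4.86-fold higher there. At days 3 and 10 Kcnq1 was not called. Whether reads of one were counted for the other cannot be told apart without the strand setting.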
